A study of Homo sapiens with 2 samples.

Results

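The interferon-stimulated and antigen processing genes were a list of 46 human genes, drawn up by name from textbook knowledge, at a time when earlier results of these data were known. Of these, 44 had at least 1 array probe set that carried no other gene's symbol, out of 18417 genes named in all. STAT2 and GBP1 had no such probe set. The data were 2 microarrays of RNA that came down with Argonaute2 (Ago2) in an antibody precipitation. Ago2 is loaded with microRNAs and binds the mRNAs to which they base-pair. The cells were A549, an established human lung adenocarcinoma line. The control culture had received an empty vector, and its counterpart overexpressed the microRNA miR-130b. Each group had 1 array. The labels do not say whether the transfected cells were a clone or a pool, or how long after transfection they were collected.

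Interferons are secreted proteins that cells release after sensing foreign nucleic acid. Type I and type III interferons signal through JAK kinases to a complex of STAT proteins and IRF9, which binds interferon-stimulated response elements in promoters and switches on a large set of antiviral genes. Those genes include the OAS enzymes, the IFIT proteins and the RNA sensors RIG-I and MDA5. Interferon gamma additionally raises the immunoproteasome subunits and the TAP transporter, which supply peptides to major histocompatibility complex (MHC) class I molecules. Epithelial cells keep a low level of many of these mRNAs without any infection.

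The mature strands of miR-130b are shown because miR-130b was the microRNA overexpressed. Which of them Ago2 carried, beside other microRNAs of the cells, was not measured here. The strands come from RefSeq (GRCh38.p14, chromosome 22, plus strand), with the seed, bases 2 to 8, in capitals.
hsa-miR-130b-3p: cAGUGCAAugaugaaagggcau
hsa-miR-130b-5p: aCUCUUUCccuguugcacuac

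The deposited values were log2 expression values, and every difference is the value with miR-130b minus that of the control, the empty vector. With 1 array per group there was no replicate error, and nothing could be tested. The available yardstick was the disagreement between different probe sets of 1 gene, a pooled SD of 0.16 on the log2 scale over 356 genes. It leaves out variation between cultures and between precipitations. RNA before precipitation and a control precipitate were not analysed here, so a higher value can be more mRNA, a larger Ago2-bound share, or both. The MIR130B probe set, a check of the labels, read 6.66 on the empty-vector array and 12.64 on the other, and AGO2 at 11.41 and 11.66. Both arrays had a median of 7.77 over 33297 probe sets.

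Genes were set apart by a low-signal line, the median of the 2-array mean over all named genes (8.64 on the log2 scale). Of the 44 measured members, 22 lay at or above the line and 22 below it. The members just above it were PSMB9, with a mean of 8.68, and USP18, with 8.69. The members just below it were IRF7, at 8.45, and ISG20, at 8.34. OAS1 passed with its empty-vector value under the line, and USP18 and PSMB9 with their miR-130b values under it. As a further marker of low signal, the 361 olfactory receptor genes, which lung cells are not expected to express, had a 95th percentile of 7.16 on the empty-vector array and 7.23 on the miR-130b array. Below those levels on both arrays lay 11 members, among them MX1, MX2, RSAD2, BST2, OAS2 and IFIH1.

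Outside antigen processing, 13 of the 18 members at or above the line had a positive difference and 5 a negative one. Of the 4 antigen processing members there, the neighbouring genes TAP1 and PSMB9 were lower by more than 2 probe-set SDs. TAP2 and B2M lay within 2 probe-set SDs of 0. The counts that follow pool all roles. Of the 22 members at or above the line, 13 were higher and 9 lower, against 51.5% of genes at or above the line that were higher. Their median difference was 0.17, against 0.010 for those genes. At least 1.5-fold higher were 5 members (22.7%), where the share of all genes at or above the line was 5.04%. These 5 were OAS1, OAS3, PARP9, IFI44L and HERC5, of which OAS1 passed the line only through its miR-130b value. At least 1.5-fold lower were 0 members, where the share of genes was 5.87%. Without the line, 29 of 44 members were higher, against 58.6% of all named genes. An increase of 1.5-fold or more was seen in 9 of the 44 (20.5%), against 3.65% of named genes, and a decrease of that size in 0, against 4.65%. The 9 include IFIT1, IFI44 and IFITM1, which lay at the olfactory receptor level on at least 1 array. A 2-fold difference was reached by 0 of the 22 members, where the shares were 1.32% higher and 1.60% lower. Differences past 2 probe-set SDs (0.33) occurred in 7 members upwards and 4 downwards, against 14.2% and 15.4% of genes. The 4 include USP18 and PSMB9, which passed the line only through their empty-vector values.

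**Figure D1:**
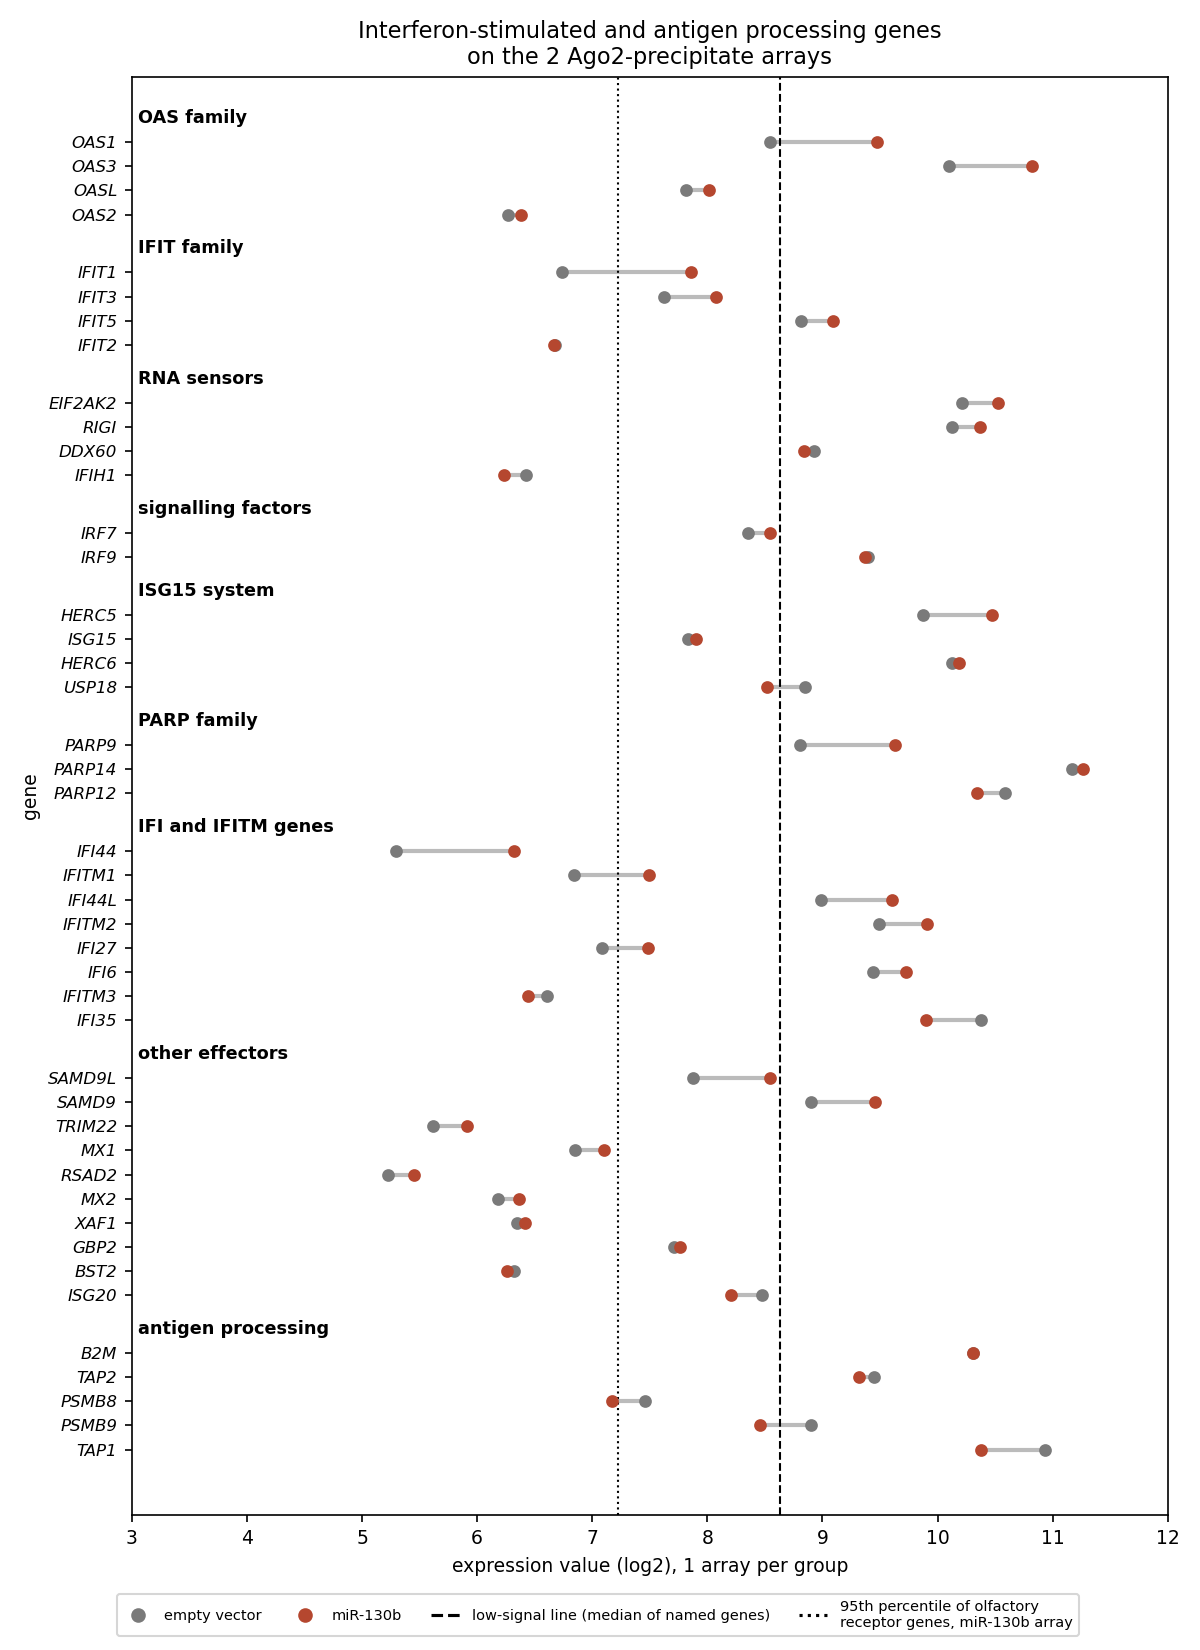
Expression values (log2, horizontal axis) of the 44 measured members on the empty-vector array (grey) and the miR-130b array (red), 1 array per group, grouped by role. The dashed line is the low-signal line at 8.64 and the dotted line the 95th percentile of olfactory receptor genes on the miR-130b array, 7.23. OAS1, OAS3, IFIT1, PARP9 and IFI44 show wide gaps with red on the right, and TAP1, PSMB9 and IFI35 have red on the left.

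**Figure D2:**
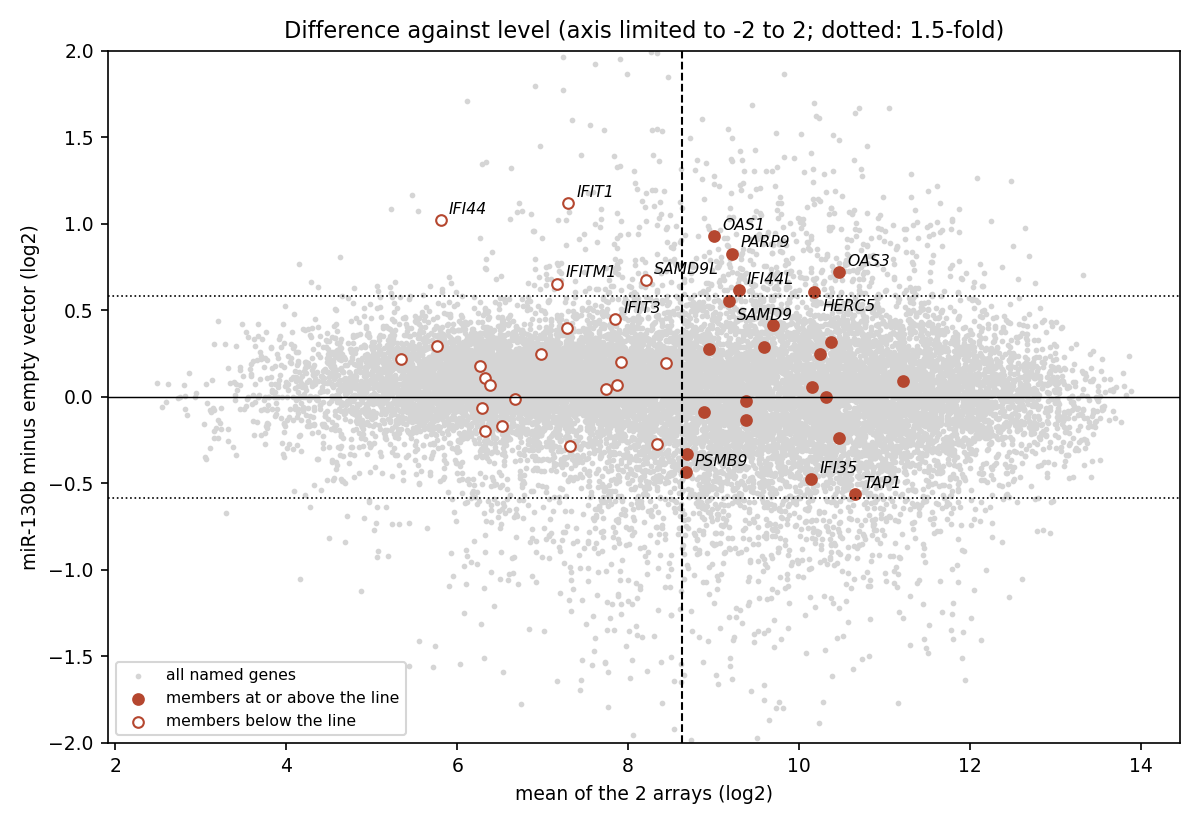
Difference (miR-130b minus empty vector, log2) against the mean of the 2 arrays (log2) for 18417 named genes (grey) and the members (red, filled at or above the low-signal line, open below it). The vertical axis is limited to 2 in each direction, which leaves 48 genes outside, and dotted lines mark 1.5-fold. The 5 filled points above the upper dotted line are OAS1, PARP9, OAS3, IFI44L and HERC5, and no member lies below the lower one.

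The OAS family makes 2'-5'-linked oligoadenylates on double-stranded RNA, which signal the degradation of RNA. OAS1 stood at 8.55 on the empty-vector array and 9.48 on the miR-130b array, a difference of 0.93 (1.90-fold). That difference lay at the 98.3rd percentile of genes at or above the line, which OAS1 passed only through its miR-130b value. OAS3, which prefers long double-stranded RNA, stood at 10.10 and 10.82, a difference of 0.72 (1.65-fold). Both were higher with miR-130b by more than 2 probe-set SDs. The other family members were below the line and differed less. OAS2 stood at 6.27 and 6.38, at the level of olfactory receptor genes. OASL, a family member without the synthetase activity, stood at 7.82 and 8.01.

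The IFIT proteins bind foreign RNA ends and block its translation. IFIT5 was the family member at or above the line, at 8.81 on the empty-vector array and 9.09 on the miR-130b array, a difference of 0.28. IFIT1, which binds RNA with unmethylated caps, stood at 6.74 and 7.86, a difference of 1.12. Its empty-vector value lay below the 95th percentile of olfactory receptor genes, so this difference is from background level and no fold or rank is given. IFIT3, a partner that stabilises IFIT1, stood at 7.62 and 8.07, and IFIT2 at 6.68 and 6.67. Of the 4 family members, 3 were higher, a share near that of all genes below the line (65.6%), where 3 of the 4 lay. IFIT2 was at the olfactory receptor level on both arrays.

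The members grouped as RNA sensors showed small differences. DDX58 (current symbol RIGI), which encodes RIG-I, stood at 10.13 on the empty-vector array and 10.37 on the miR-130b array. EIF2AK2, the kinase PKR that halts translation, stood at 10.21 and 10.53, a difference of 0.32. DDX60, a helicase linked to RIG-I signalling, stood at 8.93 and 8.84. These 3 sensors lay within 2 probe-set SDs of 0. IFIH1, which encodes MDA5, was below the line, at 6.43 and 6.23.

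Of the signalling factors, IRF9, the DNA-binding partner of STAT2, stood at 9.39 on the empty-vector array and 9.37 on the miR-130b array. Its difference of -0.023 changed sign under quantile normalization. IRF7, the factor that amplifies interferon gene transcription, was just below the line at 8.35 and 8.54. Both differences were small beside those of OAS1 and OAS3.

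ISG15 is a ubiquitin-like modifier, HERC5 its main ligase in human cells and USP18 the protease that removes it and restrains the interferon receptor. HERC5 stood at 9.87 on the empty-vector array and 10.48 on the miR-130b array, a difference of 0.61 (1.52-fold). USP18 went the other way, at 8.85 and 8.52, a difference of -0.33. A further probe set shared by USP18 and the pseudogene USP41P differed by -0.35. HERC6 stood at 10.13 and 10.18, and ISG15 itself was below the line at 7.83 and 7.90. The ligase and the protease thus differed in opposite directions, and the modifier by less than 1 probe-set SD.

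The PARP members are ADP-ribosyltransferases induced by interferon. PARP9, which acts with the ubiquitin ligase DTX3L, stood at 8.81 on the empty-vector array and 9.63 on the miR-130b array, a difference of 0.83 (1.77-fold). PARP14 stood at 11.17 and 11.26. PARP12, a zinc-finger PARP that restricts viral replication, stood at 10.58 and 10.34, a difference of -0.24. PARP9 alone of the 3 lay outside 2 probe-set SDs.

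Among the IFI and IFITM genes, IFI44L stood at 8.99 on the empty-vector array and 9.60 on the miR-130b array, a difference of 0.61 (1.53-fold). IFITM2, which blocks virus entry at endosomes, stood at 9.49 and 9.91, a difference of 0.42. IFI6 stood at 9.44 and 9.73. IFI35 was lower with miR-130b, at 10.38 and 9.90, a difference of -0.48 (1.39-fold). IFI44, a neighbour and relative of IFI44L, differed by 1.02 (5.30 and 6.32), but both values lay under the olfactory receptor level. IFITM1 stood at 6.84 and 7.49, a difference of 0.65, and IFI27 at 7.08 and 7.48. IFITM3 stood at 6.61 and 6.44. The IFITM genes are close paralogs whose probes can cross-react, so their single values are uncertain.

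The remaining antiviral effectors were mostly below the line. SAMD9, which restricts poxviruses, passed it and stood at 8.90 on the empty-vector array and 9.45 on the miR-130b array, a difference of 0.55 (1.47-fold). Its paralog SAMD9L stood at 7.87 and 8.55, a difference of 0.67. ISG20, an exonuclease, stood at 8.48 and 8.20. The dynamin-like GTPase gene MX1 stood at 6.85 and 7.10. GBP2, a guanylate-binding protein gene, stood at 7.71 and 7.76. MX2, RSAD2 (viperin), BST2 (tetherin), XAF1 and TRIM22 all lay under the olfactory receptor level on both arrays, with differences from -0.063 to 0.29. GBP1 shares a probe set with GBP3 and a pseudogene, which stood at 9.28 and 9.79, a difference of 0.52 that cannot be assigned to 1 gene.

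Below the line, 16 of 22 members were higher, against 65.6% of all genes below the line. Their median difference was 0.19, against 0.081 for those genes. At least 1.5-fold higher were 4 of them, where the share was 2.26%, and at least 1.5-fold lower were 0, where the share was 3.43%. The 4 were IFIT1, IFI44, SAMD9L and IFITM1. IFI44 lay under the olfactory receptor level on both arrays, and IFIT1 and IFITM1 on the empty-vector array. The background correction was not given, and any background signal left in both arrays could understate the differences. Differences between values this near background are also uncertain in size and sign, so these counts are weak.

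Antigen processing was the role in which no member was higher, although B2M lay so close to 0 that its sign changed under quantile normalization and cyclic loess. TAP1, a subunit of the transporter that carries peptides into the endoplasmic reticulum, stood at 10.94 on the empty-vector array and 10.38 on the miR-130b array, a difference of -0.56 (1.48-fold). PSMB9, the immunoproteasome subunit LMP2, stood at 8.90 and 8.46, a difference of -0.44 (1.35-fold). TAP2, the other transporter subunit, stood at 9.45 and 9.31, with differences from -0.18 to -0.11 over its 3 probe sets. B2M, beta-2-microglobulin, the invariant light chain of MHC class I, stood at 10.31 on both arrays. PSMB8, the immunoproteasome subunit LMP7, was below the line at 7.46 and 7.17. TAP1 and PSMB9 lay outside 2 probe-set SDs. The 3 probe sets of TAP1, and likewise those of PSMB9 and PSMB8, held the same values and count once. The median of the 4 members at or above the line was -0.28, and that of the 18 members of the other roles was 0.28. Whether the roles differ beyond replicate error was not tested, since there were no replicates.

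**Figure D3:**
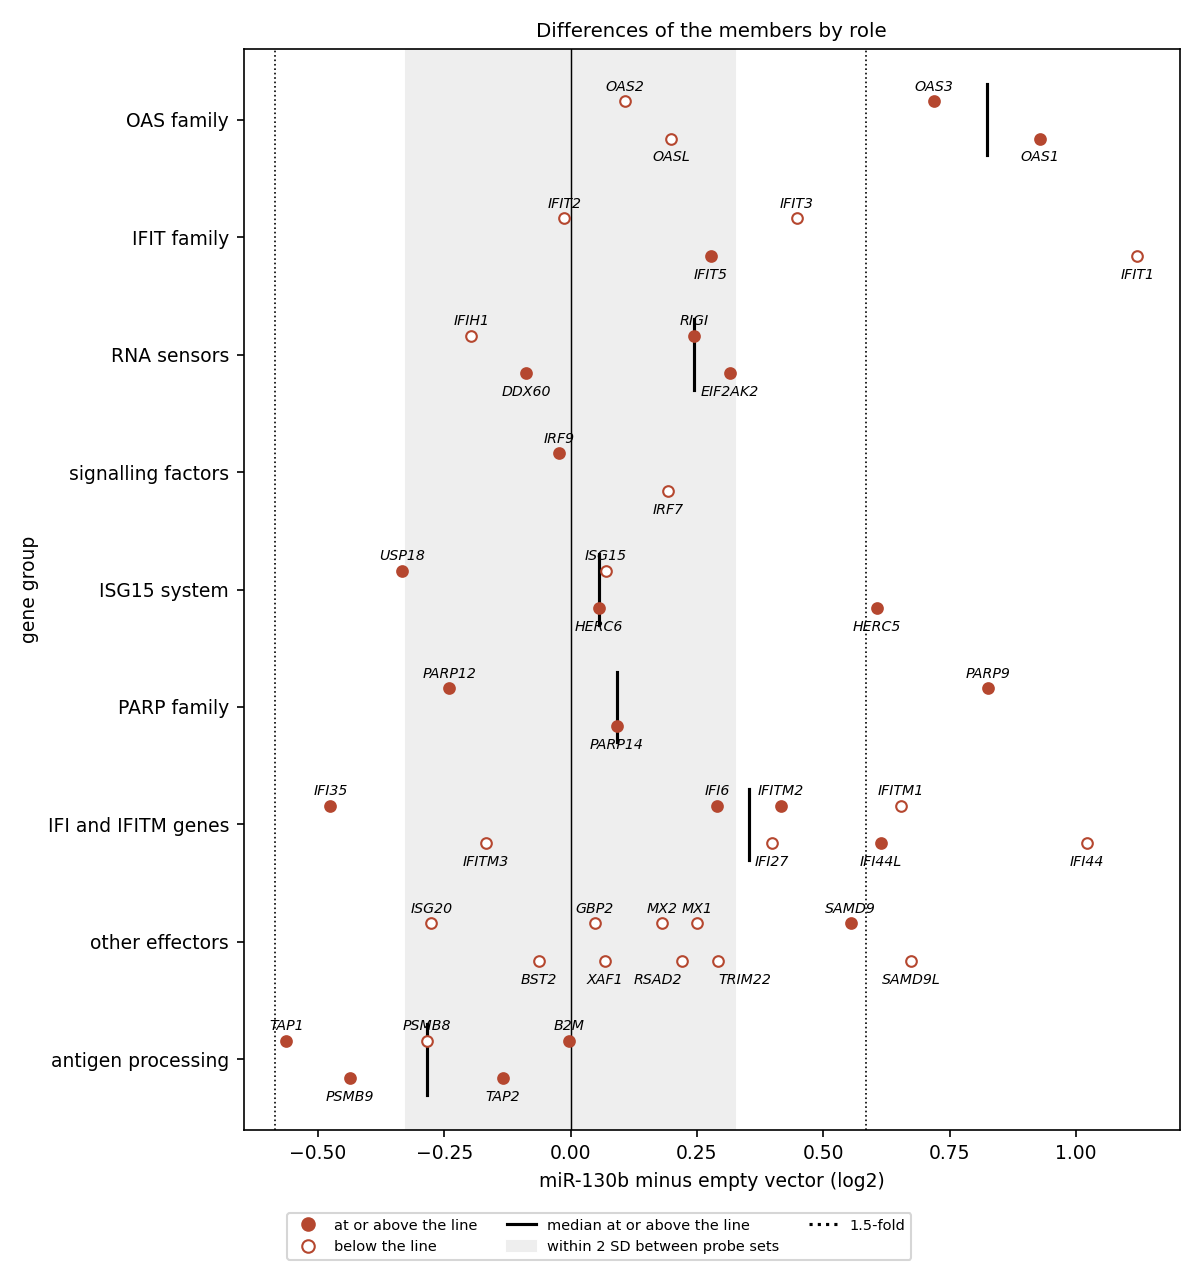
Difference (miR-130b minus empty vector, log2, horizontal axis) of each of the 44 measured members by role (vertical axis). Filled points lie at or above the low-signal line and open points below it, black bars are the median of the filled points where there are at least 2, the grey band is 2 probe-set SDs (0.33) either side of 0 and dotted lines mark 1.5-fold. OAS members sit right of 0, antigen processing members at or left of 0, and the other roles span 0 or hold values near it.

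Many of these genes lie side by side in the genome. Of 13 pairs of measured members with no other protein-coding gene between them in RefSeq, 11 had differences of the same sign. Over 14999 such pairs of all named genes the share was 53.6%. Neighbouring paralogs can share probe sequence, and some genes count in several pairs. In the OAS cluster OAS1 and OAS3 were higher by 0.93 and 0.72, and OAS2 by 0.11 at background level. HERC5 and HERC6 are neighbours, with differences of 0.61 and 0.057. SAMD9 and SAMD9L differed by 0.55 and 0.67. The chain TAP2, PSMB8, TAP1 and PSMB9 on chromosome 6 had differences of -0.13, -0.28, -0.56 and -0.44. The exceptions in sign were IFIT2 with IFIT3 and IFITM1 with IFITM3, pairs in which 1 gene was at the olfactory receptor level on both arrays. Pairs of the same sign had this limit too: IFI44L with IFI44, OAS3 with OAS2, and MX2 with MX1, where both genes were at that level. Of all genes below the line 65.6% were higher, so the signs of such pairs say little.

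Promoter windows of 300 bases, from 250 before to 50 after the RefSeq start (GRCh38.p14), were searched on both strands for the core of the interferon-stimulated response element, spelled GAAA, then 2 bases of any kind, then GAAA. Matches may overlap each other, and other interferon regulatory factors bind related letters. Of 46 members, 37 had a window and 28 of these (75.7%) held the motif. The motif was in 4.38% of all 27305 genes with a window, and in 3.57% of 35116 windows. The list was drawn up from genes known to respond to interferon, so its share is not independent of that choice. The windows below are shown because they belong to the members at both ends of the differences, the 3 highest and the 3 lowest of those at or above the line that had a window. Letters run 5' to 3' on the gene's strand, with the motif in capitals. A match on the opposite strand reads TTTC, then 2 bases, then TTTC.
OAS1, chr12:112906712-112907011, plus strand: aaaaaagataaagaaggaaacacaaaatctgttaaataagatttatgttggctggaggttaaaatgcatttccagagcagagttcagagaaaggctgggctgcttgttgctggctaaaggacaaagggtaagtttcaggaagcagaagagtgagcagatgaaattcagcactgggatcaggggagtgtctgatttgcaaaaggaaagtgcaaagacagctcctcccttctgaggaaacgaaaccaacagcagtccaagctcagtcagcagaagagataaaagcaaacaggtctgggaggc
PARP9, chr3:122564735-122565034, minus strand: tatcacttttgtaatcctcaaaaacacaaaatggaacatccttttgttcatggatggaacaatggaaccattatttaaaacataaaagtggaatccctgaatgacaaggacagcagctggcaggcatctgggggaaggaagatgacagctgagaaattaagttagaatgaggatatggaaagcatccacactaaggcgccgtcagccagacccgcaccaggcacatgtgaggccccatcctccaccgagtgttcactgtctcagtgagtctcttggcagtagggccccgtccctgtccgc
PARP9, second window, chr3:122564251-122564550, minus strand: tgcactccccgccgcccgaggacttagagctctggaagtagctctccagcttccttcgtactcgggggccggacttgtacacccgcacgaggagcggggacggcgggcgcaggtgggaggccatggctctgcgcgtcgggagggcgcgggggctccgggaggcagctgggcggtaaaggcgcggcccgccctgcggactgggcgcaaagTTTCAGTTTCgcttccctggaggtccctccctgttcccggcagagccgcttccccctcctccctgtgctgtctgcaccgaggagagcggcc
OAS3, chr12:112938224-112938523, plus strand: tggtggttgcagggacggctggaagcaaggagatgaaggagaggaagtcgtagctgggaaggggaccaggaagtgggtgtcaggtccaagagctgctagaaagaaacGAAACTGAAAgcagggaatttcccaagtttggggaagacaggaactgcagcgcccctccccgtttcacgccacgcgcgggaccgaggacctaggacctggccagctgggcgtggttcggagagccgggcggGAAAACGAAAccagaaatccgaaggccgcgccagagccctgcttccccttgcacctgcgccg
PSMB9, chr6:32853942-32854241, plus strand: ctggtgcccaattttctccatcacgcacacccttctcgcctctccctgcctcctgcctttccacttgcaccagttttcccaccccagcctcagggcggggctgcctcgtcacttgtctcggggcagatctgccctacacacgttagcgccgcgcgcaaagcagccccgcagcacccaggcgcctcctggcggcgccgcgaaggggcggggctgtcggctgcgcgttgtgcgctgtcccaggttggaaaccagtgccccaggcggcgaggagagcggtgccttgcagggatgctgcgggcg
IFI35, chr17:43006534-43006833, plus strand: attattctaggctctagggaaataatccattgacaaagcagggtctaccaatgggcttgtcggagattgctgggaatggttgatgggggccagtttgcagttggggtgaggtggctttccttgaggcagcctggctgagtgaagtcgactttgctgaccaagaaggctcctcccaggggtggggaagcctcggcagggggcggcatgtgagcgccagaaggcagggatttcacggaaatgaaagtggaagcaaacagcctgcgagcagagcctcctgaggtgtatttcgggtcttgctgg
TAP1, chr6:32853655-32853954, minus strand: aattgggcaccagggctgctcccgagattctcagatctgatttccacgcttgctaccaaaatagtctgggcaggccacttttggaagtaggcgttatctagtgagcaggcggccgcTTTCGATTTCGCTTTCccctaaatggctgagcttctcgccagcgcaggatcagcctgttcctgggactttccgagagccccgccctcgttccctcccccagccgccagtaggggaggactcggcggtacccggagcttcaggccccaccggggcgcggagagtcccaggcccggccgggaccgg
TAP1, second window, chr6:32852712-32853011, minus strand: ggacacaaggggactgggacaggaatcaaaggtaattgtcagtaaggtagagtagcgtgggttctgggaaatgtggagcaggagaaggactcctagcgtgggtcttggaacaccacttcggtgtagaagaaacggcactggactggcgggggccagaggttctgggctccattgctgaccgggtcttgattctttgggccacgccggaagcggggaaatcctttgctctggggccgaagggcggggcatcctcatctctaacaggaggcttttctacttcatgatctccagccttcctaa

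Of the 3 highest members, OAS3 held 2 matches, PARP9 held 1 in its second window and OAS1 held none. Of the 3 lowest, TAP1 held 2 matches in its first window, and IFI35 and PSMB9 held none. A window without a match says only that these letters are not in it. Of the 14 members at or above the line with a match, 9 were higher and 4 at least 1.5-fold higher, with a median difference of 0.28. Over all genes at or above the line, 51.5% were higher and 5.04% at least 1.5-fold higher, with a median of 0.010. Of the 6 with a window and no match, 3 were higher and 1 at least 1.5-fold higher, with a median of 0.017. Members with a match lay on both sides of 0, and so did members without one.

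The genes upstream in the pathway were measured for comparison. Of 15 measured interferon genes, 14 lay below the line, and IFNB1, interferon beta, stood at 5.02 on the empty-vector array and 5.01 on the miR-130b array, under the olfactory receptor median of 5.77. IFNL3, a type III interferon nearly identical to IFNL2, stood at 9.17 and 9.12. Interferon receptor and kinase genes had 0 of 11 members at or above the line past 1.5-fold in either direction, with a median of -0.095. Over all genes at or above the line 5.04% were at least 1.5-fold higher and 5.87% lower, so a count of 0 in 11 is near those shares. The lowest were IFNAR2, a chain of the type I receptor (9.49 and 8.97), and JAK2, a kinase of the interferon gamma receptor (9.83 and 9.34). The highest were SOCS3, a feedback inhibitor of JAK signalling (8.84 and 9.31), and PIAS1, an inhibitor of activated STAT proteins (12.01 and 12.35).

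Sensing and induction genes were close to their empty-vector values, with a median of 0.081 over 15 at or above the line. The shares over all genes at or above the line were 5.04% at least 1.5-fold higher and 5.87% lower. Of the 15, 0 were 1.5-fold higher and 1 (6.7%) was lower by that much, near those shares. It was IFI16, a DNA sensor, at 9.91 on the empty-vector array and 9.27 on the miR-130b array. IKBKE, a kinase that activates IRF3, stood at 10.17 and 9.71. MYD88, the adaptor of most Toll-like receptors, stood at 10.23 and 10.57, and CGAS, the cytosolic DNA sensor, at 9.58 and 9.84. MAVS, the adaptor of RIG-I, differed by 0.12, and the transcription factor gene IRF1 by 0.14. TLR3, the endosomal sensor of double-stranded RNA, was below the line and is named after its values were seen. It stood at 8.51 and 7.16, a difference of -1.35, and the second value lay under the 95th percentile of olfactory receptor genes.

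Peptide loading and MHC class I genes differed in both directions. Of 8 measured at or above the line, 4 were higher and 4 lower, with a median of 0.046, and PSME2, a proteasome activator gene near 0, changed sign under quantile normalization and cyclic loess. ERAP1, which trims peptides in the endoplasmic reticulum, stood at 11.37 on the empty-vector array and 10.67 on the miR-130b array. The chaperone gene CALR stood at 13.06 and 12.47. These 2 of the 8 were at least 1.5-fold lower, and 0 were at least 1.5-fold higher. The shares over all genes at or above the line were 5.87% lower and 5.04% higher by that much. Whether 2 of 8 exceeds the share of lower genes was not tested. NLRC5, the transactivator of MHC class I genes, stood at 8.48 and 9.03, and TAPBP, tapasin, at 11.43 and 11.75. TAPBP was higher on each of its 3 probe sets, by 0.32 to 0.33. HLA-E and HLA-G were not analysed here. The 3 probe sets shared by HLA-B and HLA-C differed by 0.12 to 0.13 and the 3 shared by HLA-B and HLA-F by 0.16 to 0.18. These class I heavy chain differences lay within 2 probe-set SDs (0.33) of 0, where TAP1 and PSMB9 were lower by more than that. The sets shared by HLA-B and HLA-F read 7.49 to 8.51 with the empty vector, under the low-signal line. Of all genes below that line 65.6% were higher. The constitutive proteasome subunit genes that the immunoproteasome subunits replace differed by 0.13 (PSMB5), 0.031 (PSMB6) and -0.19 (PSMB7).

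**Figure D4:**
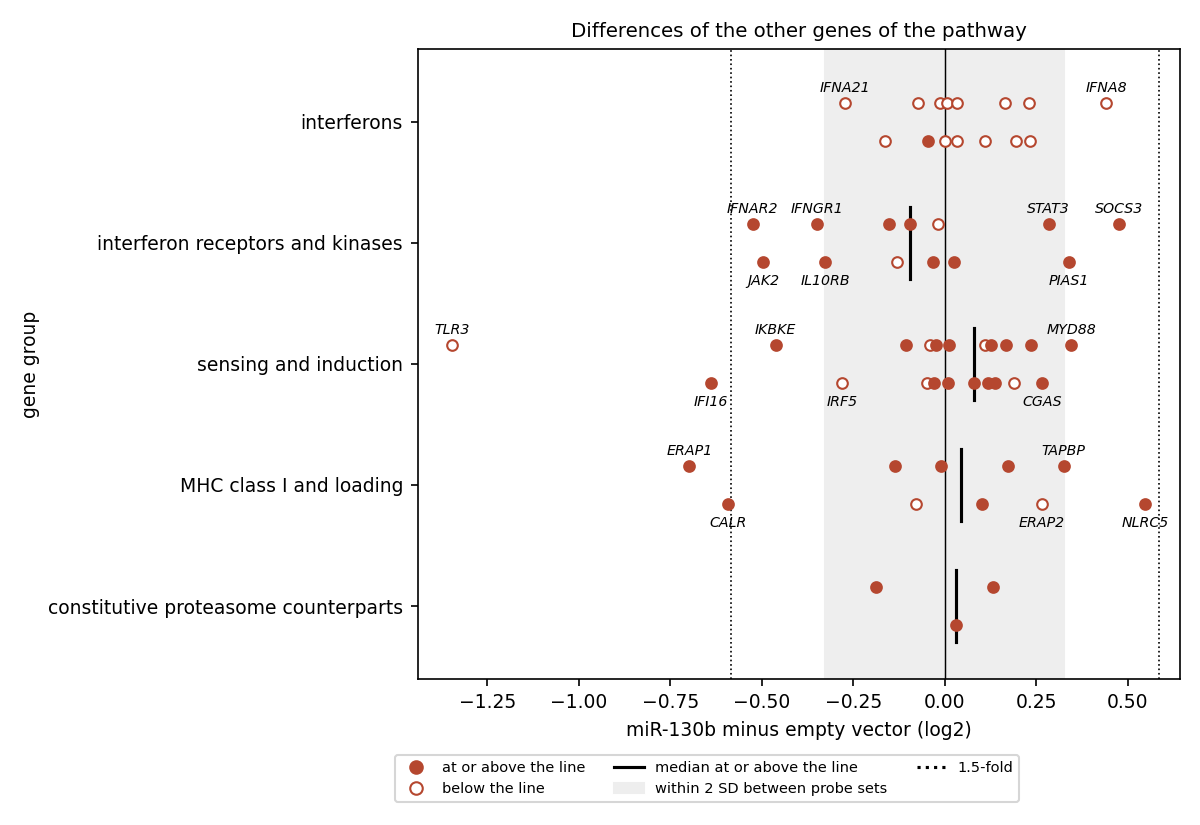
Difference (miR-130b minus empty vector, log2, horizontal axis) of the other genes of the pathway by group (vertical axis), with symbols as in the plot of members by role. TLR3, ERAP1, IFI16 and CALR lie left of the 1.5-fold line, and no gene lies right of the 1.5-fold line on the other side.

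Of 8 epithelial and A549 markers, 7 lay at or above the line, among them the keratin gene KRT8 at 13.38 and 13.48. The exception was EPCAM, a common epithelial marker, which lay under the 95th percentile of olfactory receptor genes on both arrays. CDH1, which encodes the epithelial adhesion protein E-cadherin, was at least 2-fold lower with miR-130b, at 12.61 on the empty-vector array and 11.49 on the miR-130b array, a difference of -1.12. It was the 1 marker of these 7 past 1.5-fold, and KRT19 had the largest difference upwards, 0.37. The log2 of the summed linear signal of this list was 15.66 and 15.62. Of 11 measured leukocyte markers, 9 lay below the line, with PTPRC, which encodes CD45, at 4.38 and 4.58. CD14 was higher (8.89 and 9.53) and CD68 lower (11.14 and 9.96), as was ITGAM below the line (8.56 and 7.90). The log2 of the summed linear signal of the leukocyte list was 11.94 on the empty-vector array and 11.47 on the miR-130b array. Both measured markers of plasmacytoid dendritic cells, a main source of type I interferon in blood, were under the olfactory receptor level. All 6 fibroblast markers were higher, by 0.091 to 0.47, against 58.6% of all named genes. COL1A1 was at or above the line and the other 5 were below it, where 65.6% of all genes were higher. All 4 endothelial markers were higher as well, by 0.10 to 0.28. The part of these markers in the results above was not tested.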

How the data were processed

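RNA precipitated with an anti-Ago2 antibody from A549 cells was measured on 2 biotin-labelled Affymetrix whole-transcript arrays, per the labels. The deposited log2 values per probe set came in 1 table. Their background correction, normalization and genome build were not given in the sources used here, and the log2 unit was taken from the range, 1.95 to 14.17. The labels' extraction protocol describes excised tissue, so how the precipitated RNA was purified is uncertain.

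Of 33297 probe sets, 19460 had 1 gene symbol in the supplied platform annotation, 1754 had several and 12083 were unnamed. Symbols were updated through Entrez identifiers (19429 matched RefSeq). Averaging per gene left 18417 genes, 9209 of them at or above the low-signal line. Each difference is miR-130b minus empty vector, counted at 1.5-fold and 2-fold. With 1 array per group there was no test. The number of arrays limits the precision. Motifs were searched in RefSeq promoter windows.

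The members, their roles and the lists were chosen with earlier results of these data known. Every member at or above the line was named. Below it, members past 1.5-fold were named, with others as examples of each role. In the other pathway lists the 2 largest differences each way among genes at or above the line were named, with MAVS, IRF1 and TAPBP. Other genes of those lists, and the markers, were named after their values were seen. The counting was checked on simulated data. Alternatives were no filter, a line at the 75th percentile, centring, quantile normalization, cyclic loess, the brightest probe set, a 2-fold threshold and means. Python 3.11.15, pandas 2.3.3, numpy 2.4.6, matplotlib 3.10.9, R 4.3.3 and limma 3.58.1 (normalization only) were used.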

Additional observations from a re-analysis of the deposited data

How the results depend on the processing

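No paired analysis was possible because each group had 1 array. The median difference of the members at or above the low-signal line, 0.17, ran from 0.091 to 0.19 under 6 alternatives, and their mean was also 0.17. Normalization, centring and the choice of probe set moved no single member by more than 0.061, and changed the sign of B2M (quantile normalization and cyclic loess) and IRF9 (quantile normalization). Members higher with miR-130b were 15 of 22 after quantile normalization and 14 of 22 after cyclic loess. The shares of all genes at or above the line that were higher were then 54.8% and 52.7%.

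The filter on low values changed how many genes were counted. With no filter, 9 members were at least 1.5-fold higher and 29 were higher. The medians were then 0.46 for the OAS family, 0.079 for the RNA sensors and 0.20 for the other effectors. With the line at the 75th percentile 5 members were left, 3 higher and 1 (OAS3) at least 1.5-fold higher. Of all genes kept by that line 51.6% were higher. The PARP median was then -0.074, over PARP12 and PARP14, and the antigen processing value -0.56, that of TAP1 alone. At a 2-fold threshold, 0 members at or above the line were higher. Low signal near the olfactory receptor level limits what can be read from 15 members on at least 1 array.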

Other observations

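Probe sets that carry the symbols of several interferon alpha genes were all at low values. The 4 of them that include genes of the interferon list stood between 3.98 and 6.14 with the empty vector and between 4.08 and 6.34 with miR-130b, with differences from 0.099 to 0.21. The 2 probe sets shared by PDIA3, the disulphide isomerase of the MHC class I loading complex, and its pseudogene differed by -0.53 and -0.57, from 13.13 to 12.60 and from 13.01 to 12.44.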
